A study of Homo sapiens with 12 samples.

Results

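The integrin and laminin genes described are 37 protein-coding genes of the deposited table whose symbols name an integrin alpha chain, an integrin beta chain or a laminin chain (ITGA, ITGB, LAMA, LAMB and LAMC followed by a number or letter). Each symbol had 1 row. They comprise 26 receptor genes (18 integrin alpha and 8 integrin beta genes) and 11 ligand genes (5 laminin alpha, 4 laminin beta and 2 laminin gamma genes), out of 44335 gene intervals used here. The study sequenced RNA from 12 libraries of A172, an established adherent human glioblastoma line with the labelled genotype WT. The 3 groups held 4 libraries each: a control group given scrambled siRNA, and groups given siRNA-1 or siRNA-2, both directed against uc.110, an ultraconserved genomic element. Every well, controls included, received 3 µL of a 20 µM siRNA with a Lipofectamine reagent for 6 h, and RNA was taken on day 2. A172 is a single cell line, and nothing in the labels states whether replicate libraries are separate cultures; p-values therefore describe only the spread among these libraries, and that spread may be technical.

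Integrins are cell surface receptors made of an alpha and a beta chain that join the extracellular matrix outside the cell to the actin cytoskeleton inside. The beta chain encoded by ITGB1 pairs with many alpha chains, whereas ITGB4 pairs with ITGA6, and ITGB3, ITGB5, ITGB6 and ITGB8 each pair with ITGAV. Laminins are secreted matrix proteins assembled from an alpha, a beta and a gamma chain; they form the basement membrane sheet and are bound by the integrins with ITGA3, ITGA6 or ITGA7. In glioma, integrins and laminins are studied for their part in attachment and invasion along blood vessels. In bulk RNA, fewer cells of a type and less RNA per cell cannot be told apart.

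The 12 libraries held 42740109 to 52899368 counts over the intervals used. Reads of 45S ribosomal RNA were 0.592% to 1.79% of the counts in 10 libraries, with higher shares in replicate 3 of siRNA-1 (5.66%) and replicate 2 of siRNA-2 (3.09%), and scrambled replicate 1 had 1556 intervals with reads in no other library, against 86 to 167 in each of the others. The uc.110 region itself was covered by 0 to 6 reads in a library, too few to check the knockdown. Interferon response genes differed between the groups: the summed level of the 18 genes used lay at 804 to 1821 CPM (reads scaled to a common TMM library size) with the scrambled siRNA, 4750.2 to 5031 CPM with siRNA-1 and 6099 to 6632 CPM with siRNA-2, and all 18 rose with both siRNAs. The part of that difference in the values below was not tested. Among glial and glioma markers VIM (2644 ± 119 CPM, SD, n = 4), CD44 (698 ± 27.2 CPM), NES (445 ± 20.1 CPM) and EGFR (184 ± 6.497 CPM) were well above GFAP (6.30 ± 0.492 CPM), OLIG2 (4.65 ± 0.308 CPM) and SOX2 (15.6 ± 1.56 CPM) in the scrambled libraries, S100B had at most 1 read in a library, and AQP4 had 0. The summed level of the 11 markers was 3777 to 4136 CPM with the scrambled siRNA, 2912 to 3224 CPM with siRNA-1 and 3273 to 3503 CPM with siRNA-2. Of the 7 tested as described below, 3 rose and 2 fell with each siRNA (71.4% called). Of protein-coding genes 63% and 65.6% were called.

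The highest levels in the scrambled libraries were those of receptor genes for laminin and fibronectin and of the common laminin chains. Coordinates below are the deposited hg38 intervals, which span introns and exons of each gene. Levels of different genes are compared per length, as CPM per kb of annotated exon. On that scale ITGA3, the alpha chain of a laminin receptor, was highest at 217 ± 4.42 (SD, n = 4), ahead of ITGB1 at 184 ± 9.35. ITGA5, the alpha chain of the fibronectin receptor, followed at 85.2 ± 1.99. The laminin genes with the highest levels were LAMC1 at 73.8 ± 2.75 and LAMB1 at 52.9 ± 1.01, the gamma and beta chains shared by most laminins. LAMA5 at 25.9 ± 2.20 was the highest laminin alpha gene, and its mean lay above LAMB2 at 21.8 ± 0.889, the next of these genes in the order, by more than the SD of either. LAMA4, a chain of endothelial and mesenchymal laminins, was at 6.08 ± 0.0640, and LAMA2, the chain of muscle and nerve laminins, at 3.86 ± 0.0867. The leukocyte integrin genes ITGAM, ITGAD and ITGAX were at 0.901 ± 0.352, 0.451 ± 0.452 and 0.424 ± 0.304 CPM per kb. These values rest on shared reads described below, for ITGAD in large part. The scrambled mean of ITGAD was 1.99 CPM as deposited and 0.257 CPM with those reads subtracted. For ITGAX it was 3.00 CPM and 1.27 CPM. ITGAL, the alpha chain of a lymphocyte integrin, had 0 to 9 reads in a library and was the 1 member that did not pass the filter on low counts.

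**Figure D1:**
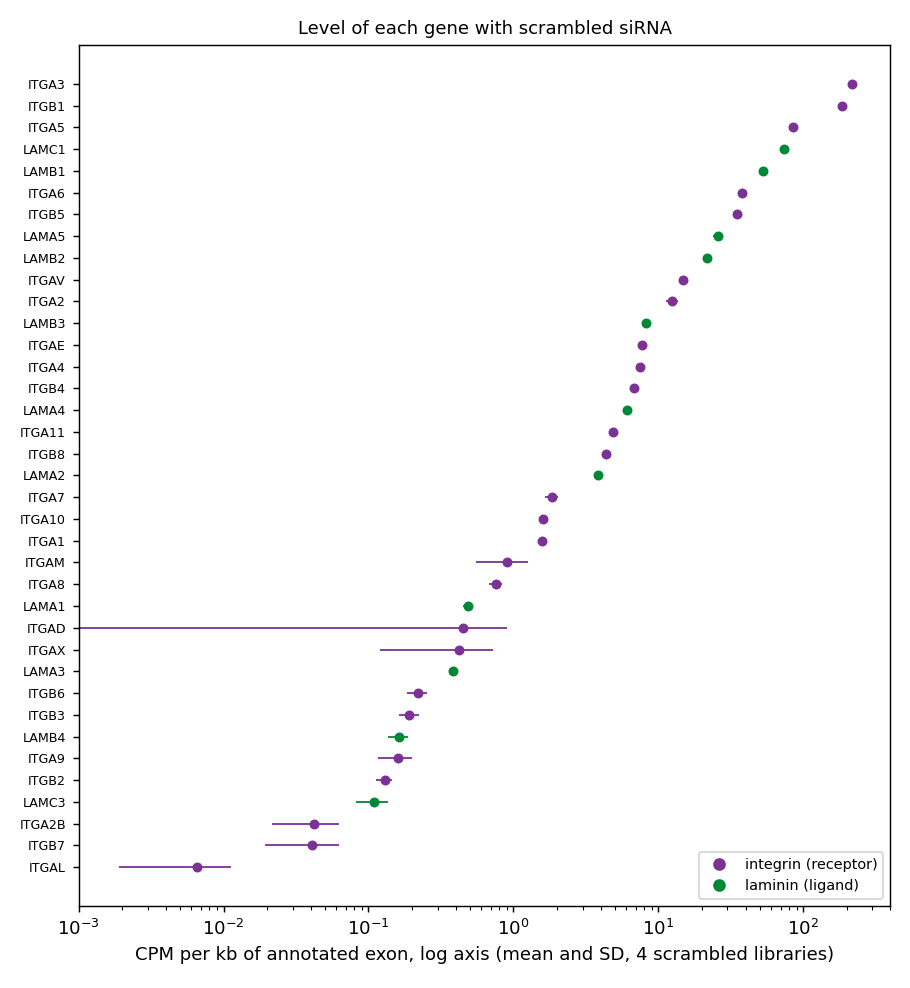
Level of each of the 37 genes in CPM per kb of annotated exon (log axis) with the scrambled siRNA, as the mean (points) and SD (bars) of 4 libraries, with integrin genes in purple and laminin genes in green. ITGA3 and ITGB1 are at the top and ITGAL at the bottom, and the lower bar of ITGAD runs off the axis because its SD is as large as its mean.

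With either siRNA, genes on both sides moved in both directions. Genes were tested with edgeR's quasi-likelihood test on 4 libraries against 4, with p-values adjusted by Benjamini-Hochberg over 24927 genes and called below 0.05. Of the 36 members tested, 25 (69.4%) differed with siRNA-1, 12 of them higher and 13 lower, where 63% of protein-coding genes were called (35% higher and 28% lower). With siRNA-2, 23 members (63.9%) differed, 13 higher and 10 lower, where 65.6% of protein-coding genes were called (35.1% higher and 30.5% lower). The share of members called was thus near the background in both comparisons. The libraries of the groups did not overlap for 24 members with siRNA-1, where 56.6% of protein-coding genes were apart, and for 22 members with siRNA-2, where 61.7% were. A change of at least 2-fold was called for 7 members with siRNA-1 (19.4%) and for 4 with siRNA-2 (11.1%), against 6.75% and 8.07% of protein-coding genes. The median log2 fold change of the 36 members was -0.09 with siRNA-1 and 0.06 with siRNA-2, and that of all genes tested was 0.01 and 0.01.

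Both comparisons use the same scrambled libraries, so their values are given side by side. The 10 members called higher with both siRNAs were ITGA1, ITGA2B, ITGA5, ITGA7, ITGA11, ITGB4, LAMA4, LAMB1, LAMB2 and LAMC3 (27.8% of those tested, where 27.3% of protein-coding genes were higher with both). The 9 members called lower with both were ITGA4, ITGA8, ITGA10, ITGAE, ITGAV, ITGB1, ITGB8, LAMB3 and LAMC1 (25%, where 21.8% of protein-coding genes were lower with both). ITGA2 was called in opposite directions, as were 2.27% of protein-coding genes. ITGA6, ITGB2, ITGB3, LAMA1 and LAMB4 were called with siRNA-1 and missed the threshold with siRNA-2, ITGA3, ITGB5 and LAMA5 the reverse, and 8 members (ITGA9, ITGAD, ITGAM, ITGAX, ITGB6, ITGB7, LAMA2 and LAMA3) were called with neither.

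**Figure D2:**
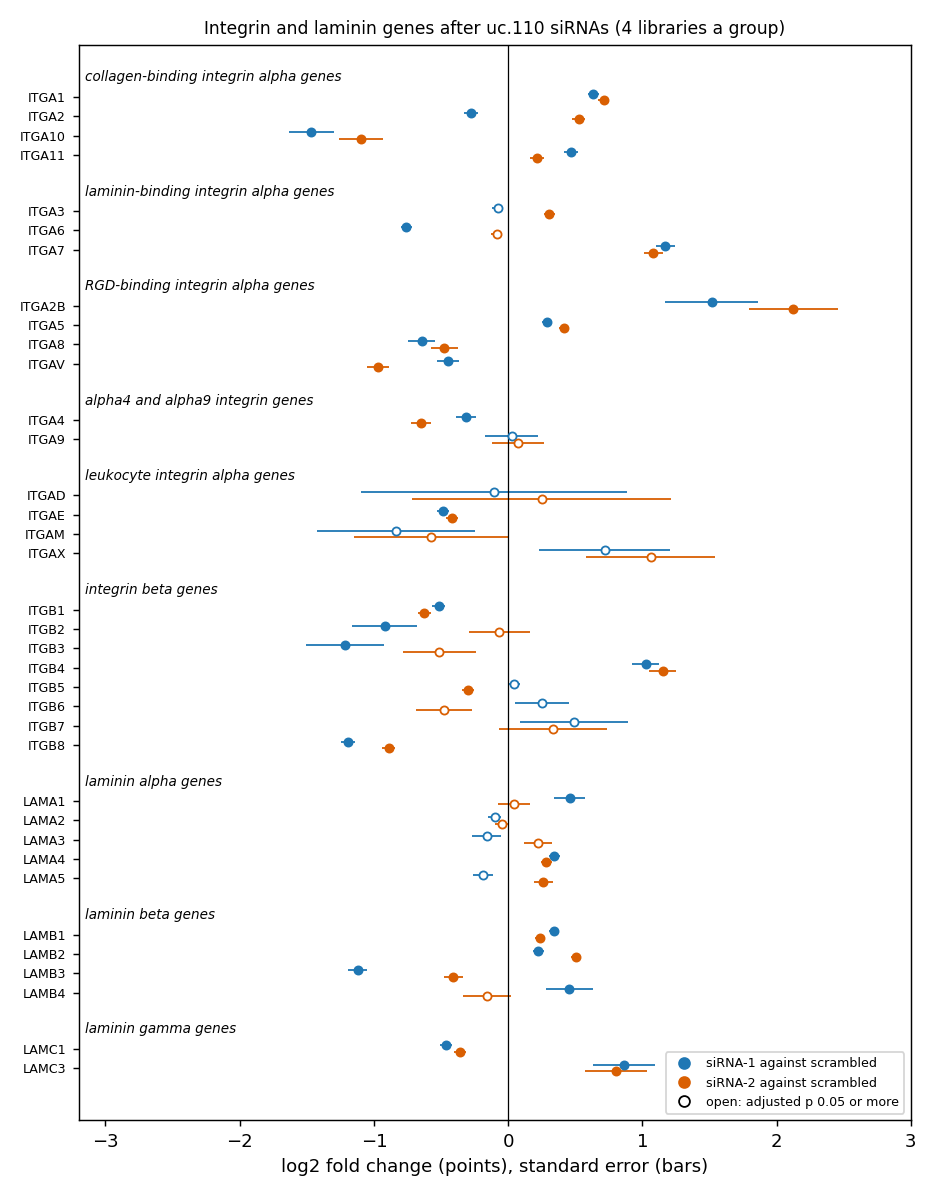
Log2 fold change (points) and its standard error (bars) of the 36 genes tested, with siRNA-1 (blue) and siRNA-2 (orange) against the scrambled siRNA, 4 libraries a group, ordered by class. Filled points are called (adjusted p under 0.05) and open points are not; ITGB4, ITGA7 and ITGA2B lie furthest to the right, and ITGA10, ITGB3, ITGB8 and LAMB3 are among those furthest to the left.

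The promoter stretches of 26 of the 37 members were taken from RefSeq (GRCh38.p14). Of the others, 11 members had no entry: ITGA3, ITGA7, ITGA9, ITGAD, ITGAL, ITGAX, ITGB2, ITGB3, ITGB4, LAMA1 and LAMC3. Shown are the 250 bases before the annotated start of ITGB1 (chr10:32958231-32958480, minus strand), ITGAV (chr2:186589806-186590055, plus strand) and LAMC1 (chr1:183023170-183023419, plus strand), which fell with both siRNAs, and of LAMB1 (chr7:108003162-108003411, minus strand) and LAMB2 (chr3:49133051-49133300, minus strand), which rose with both, because LAMC1 pairs with LAMB1 or LAMB2 in the same laminins. Sequences run 5′ to 3′ along the gene, and capitals mark a GC box, GGGCGG on either strand.
ITGB1: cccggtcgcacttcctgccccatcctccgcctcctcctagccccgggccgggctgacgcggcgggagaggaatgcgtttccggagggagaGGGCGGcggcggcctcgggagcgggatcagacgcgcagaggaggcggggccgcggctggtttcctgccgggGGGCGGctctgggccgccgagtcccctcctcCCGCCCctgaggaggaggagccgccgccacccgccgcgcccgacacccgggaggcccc
ITGAV: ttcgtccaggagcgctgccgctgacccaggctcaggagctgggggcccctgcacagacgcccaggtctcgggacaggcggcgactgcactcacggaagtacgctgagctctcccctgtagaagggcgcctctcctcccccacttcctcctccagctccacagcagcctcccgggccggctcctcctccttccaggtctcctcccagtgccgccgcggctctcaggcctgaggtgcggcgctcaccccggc
LAMC1: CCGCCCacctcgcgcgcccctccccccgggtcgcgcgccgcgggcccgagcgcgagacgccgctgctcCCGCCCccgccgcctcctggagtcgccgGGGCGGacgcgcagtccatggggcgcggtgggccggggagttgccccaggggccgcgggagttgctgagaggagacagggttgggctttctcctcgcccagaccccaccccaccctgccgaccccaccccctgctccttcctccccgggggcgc
LAMB1: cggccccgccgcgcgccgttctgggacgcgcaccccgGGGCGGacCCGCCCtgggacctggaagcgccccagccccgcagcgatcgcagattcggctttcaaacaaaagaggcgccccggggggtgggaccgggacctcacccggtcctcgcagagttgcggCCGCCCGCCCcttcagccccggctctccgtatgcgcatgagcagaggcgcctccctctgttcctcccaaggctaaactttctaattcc
LAMB2: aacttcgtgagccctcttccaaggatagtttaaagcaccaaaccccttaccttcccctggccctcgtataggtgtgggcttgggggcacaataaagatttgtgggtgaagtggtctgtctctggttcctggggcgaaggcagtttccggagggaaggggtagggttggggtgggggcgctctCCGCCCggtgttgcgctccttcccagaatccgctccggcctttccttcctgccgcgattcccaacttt
The search found 3 GC boxes in the ITGB1 stretch, 0 in that of ITGAV, 3 in that of LAMC1, 4 in that of LAMB1 (of which a neighbouring pair overlaps) and 1 in that of LAMB2, so this box did not separate these genes by direction. Over all members, 13 of 26 stretches held a GC box, as did 42.6% of 35116 promoters of the same length. The AP-1 motif TGANTCA was in 1 of 26 stretches, that of LAMA3, and in 6.57% of all promoters. The interferon-stimulated response element GAAANNGAAA was in 0 of 26 stretches and in 3.02% of all promoters. Both strands were searched, and a match describes only the letters in this window. Bases just after the annotated start were looked up in GENCODE v29 transcripts of the same gene. They were found for ITGB1, ITGAV, LAMB1 and LAMB2 but not for LAMC1. They were also not found for ITGA1, ITGA2B, ITGA6, ITGA8, ITGB8 and LAMB3.

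Among the integrin beta genes ITGB1, the shared chain, and ITGB8 fell with both siRNAs, ITGB3 and ITGB2 fell with siRNA-1, ITGB5 fell with siRNA-2, and ITGB4 rose with both. Of the 8 genes, 1 was higher and 4 lower with siRNA-1 (62.5% called), and 1 higher and 3 lower with siRNA-2 (50% called). Of protein-coding genes 63% and 65.6% were called, so the share of beta genes called was not above the background. Their summed level was 1445 ± 58.7 CPM (SD, n = 4) with the scrambled siRNA, 1128 ± 48.1 CPM with siRNA-1 and 1039.8 ± 40.4 CPM with siRNA-2, most of it from ITGB1.

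ITGB1 (chr10:32886146-32958365, minus strand) stood at 1060.0, 1063, 1129 and 1177 CPM in the scrambled libraries, 819, 779, 717 and 779.9 CPM with siRNA-1, and 650.5, 730.1, 759 and 733 CPM with siRNA-2. All 8 siRNA libraries were below all 4 scrambled libraries, and the libraries of the siRNAs overlapped. The log2 fold change was -0.52 ± 0.05 (SE) with siRNA-1 (adjusted p = 4.03e-09) and -0.62 ± 0.05 (SE) with siRNA-2 (adjusted p = 1.45e-10). SNORA86, a small RNA inside ITGB1, held 7.35% as many reads.

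ITGB8 (chr7:20329819-20415981, plus strand) encodes the partner of ITGAV in a receptor that activates latent TGF-beta. Its level was 60.8, 70.9, 64.6 and 68.5 CPM in the scrambled libraries, 29.6, 30.0, 27.8 and 28.5 CPM with siRNA-1, and 37.2, 34.8, 33.4 and 37.6 CPM with siRNA-2. The 3 groups did not overlap, with siRNA-1 lowest and the scrambled libraries highest. ITGB8 fell to 0.438 times the scrambled level with siRNA-1 (log2 fold change -1.19 ± 0.05 (SE), adjusted p = 7.47e-16) and to 0.540 times with siRNA-2 (-0.89 ± 0.05 (SE), adjusted p = 1.21e-13). LOC101927811, on the other strand, shares 1949 bases with ITGB8, held 9.79% as many reads and fell (-1.15 ± 0.10 and -0.67 ± 0.10, SE).

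ITGB4 (chr17:75720535-75757936, plus strand) encodes the long-tailed beta chain of hemidesmosomes, the structures that anchor epithelial cells to laminin. Its interval held 45.3, 47.9, 45.1 and 44.4 CPM in the scrambled libraries, 79.7, 90.6, 105 and 96.5 CPM with siRNA-1, and 121, 93.5, 99.6 and 91.7 CPM with siRNA-2. Every siRNA library was above every scrambled library, and the libraries of the siRNAs overlapped. ITGB4 rose with siRNA-1 (log2 fold change 1.03 ± 0.10 (SE), adjusted p = 8.97e-06) and with siRNA-2 (1.15 ± 0.10 (SE), adjusted p = 2.93e-06). The interval of GALK1, on the other strand, shares 6468 bases with it and held 101% as many reads; it rose by 0.73 ± 0.05 (SE) and 0.82 ± 0.05 (SE), and the reads of these genes could not be separated.

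ITGB3 (chr17:47253827-47319845, plus strand), the beta chain of the vitronectin receptor and of the platelet fibrinogen receptor, was low, with 40, 45, 32 and 40 reads in the scrambled libraries, 14, 24, 15 and 13 reads with siRNA-1, and 38, 18, 29 and 30 reads with siRNA-2. The siRNA-1 libraries lay below the scrambled ones, whereas the siRNA-2 libraries overlapped with them. ITGB3 fell with siRNA-1 (log2 fold change -1.21 ± 0.29 (SE), adjusted p = 9.95e-04), and the value was -0.51 ± 0.27 (SE) with siRNA-2 (adjusted p = 0.114, or -0.78 with adjusted p = 0.0258 without siRNA-2 replicate 1). The opposite-strand interval EFCAB13-DT covers 16403 of its bases and held 57.1% as many reads. EFCAB13-DT changed by -0.98 ± 0.41 (SE, called) and -0.33 ± 0.38 (SE, not called), so the ITGB3 values may hold shared reads.

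ITGB2 (chr21:44885949-44928873, minus strand), the beta chain of the leukocyte integrins, had 47, 38, 40 and 39 reads in the scrambled libraries, 21, 21, 28 and 14 reads with siRNA-1, and 31, 44, 41 and 51 reads with siRNA-2. With siRNA-1 all libraries were below the scrambled ones, and with siRNA-2 the groups overlapped. ITGB2 fell with siRNA-1 (log2 fold change -0.92 ± 0.24 (SE), adjusted p = 0.00249), and the value was -0.07 ± 0.23 (SE) with siRNA-2 (adjusted p = 0.827). A neighbour on the same strand, LINC01547, shares 1076 bases with it and held 845% as many reads, and ITGB2-AS1, on the other strand, shares 7839 bases and held 36.4% as many. LINC01547 changed by -0.04 ± 0.11 (SE, not called) and 0.43 ± 0.10 (SE). The lowest counts among the 3 nearest intervals on each side came to 21.2% of the ITGB2 reads, and to at most 42.9% in a library. Whether such reads span ITGB2 was not tested.

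ITGB5, the beta chain of another vitronectin receptor, was at 223 ± 8.57 CPM (SD, n = 4) with the scrambled siRNA, 231 ± 16.3 CPM with siRNA-1 and 182 ± 6.12 CPM with siRNA-2. It fell with siRNA-2 (log2 fold change -0.30 ± 0.04 (SE), adjusted p = 2.33e-06) and was not called with siRNA-1 (0.05 ± 0.04 (SE), adjusted p = 0.401). ITGB6, an epithelial partner of ITGAV, and ITGB7, a beta chain of gut-homing lymphocytes, were near 1 CPM or below and were called with neither siRNA. For ITGB6 the value with siRNA-2 was -0.48 ± 0.21 (SE) (adjusted p = 0.0544), and it was called lower under 8 of 20 alternative settings (-0.60 to -0.48), among them edgeR without scrambled replicate 3, siRNA-1 replicate 1 or siRNA-2 replicate 3. The lowest counts among the 3 nearest intervals on each side came to 17.5% of the ITGB6 reads, and to at most 47.1% in a library. ITGB7 shares 3825 bases with ZNF740, whose interval held far more reads.

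**Figure D3:**
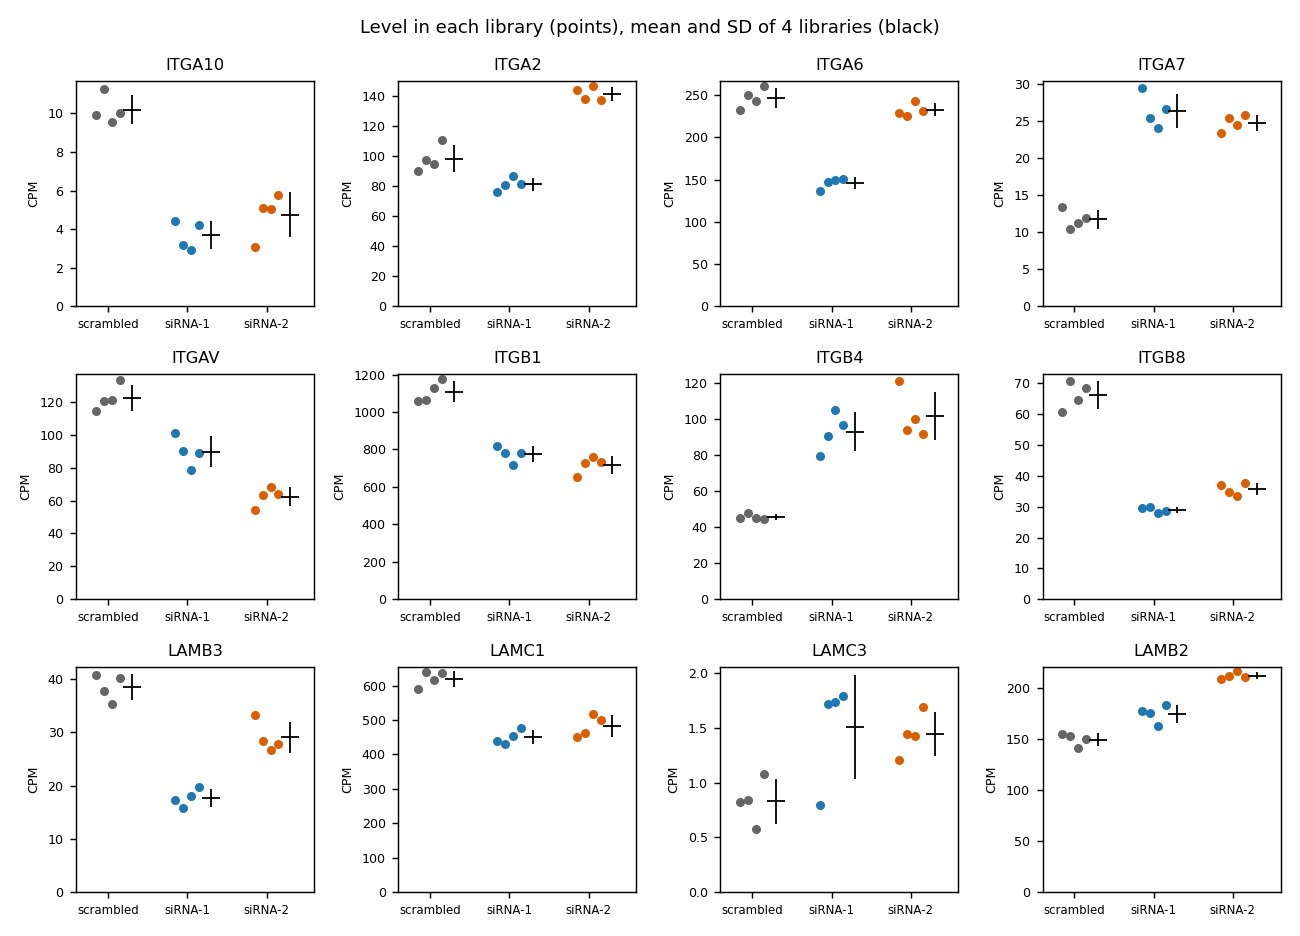
Level in CPM (each axis from 0) of 12 of the genes in each library (points), with the mean and SD of 4 libraries beside them (black), for scrambled (grey), siRNA-1 (blue) and siRNA-2 (orange). ITGB1, ITGB8, ITGAV, ITGA10, LAMB3 and LAMC1 are lower in all siRNA libraries than in any scrambled library, ITGA7, ITGB4 and LAMB2 are higher, and ITGA2 is lower with siRNA-1 and higher with siRNA-2.

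The collagen-binding alpha genes split. ITGA10 fell, ITGA11 and the ITGA1 interval rose with both siRNAs, and ITGA2 went down with siRNA-1 and up with siRNA-2. Their alpha chains all pair with the ITGB1 chain.

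ITGA10 (chr1:145890850-145910189, minus strand), the alpha chain of a receptor best known from cartilage, was at 9.94, 11.3, 9.54 and 10.04 CPM in the scrambled libraries, 4.40, 3.20, 2.93 and 4.19 CPM with siRNA-1, and 3.07, 5.08, 5.04 and 5.77 CPM with siRNA-2. All siRNA libraries were below all scrambled libraries. It fell with siRNA-1 (log2 fold change -1.47 ± 0.17 (SE), adjusted p = 2.90e-06) and with siRNA-2 (-1.10 ± 0.16 (SE), adjusted p = 3.54e-05), and no other used interval overlaps it.

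ITGA2 (chr5:52989327-53094779, plus strand), the alpha chain of a collagen receptor of epithelial cells and platelets, was at 90.3, 97.7, 94.98 and 111 CPM in the scrambled libraries, 76.4, 80.8, 86.7 and 81.5 CPM with siRNA-1, and 144, 138, 147 and 138 CPM with siRNA-2. The siRNA-1 libraries were the lowest, the scrambled libraries lay between, and the siRNA-2 libraries were the highest, without overlap. It fell with siRNA-1 (log2 fold change -0.28 ± 0.05 (SE), adjusted p = 1.21e-04) and rose with siRNA-2 (0.52 ± 0.05 (SE), adjusted p = 1.74e-08). Directly between the siRNAs, siRNA-2 was higher by 0.80 ± 0.05 (SE) (adjusted p = 1.81e-10).

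The ITGA1 (chr5:52787916-52959209, plus strand) interval, named for another collagen-receptor alpha chain, held 28.0, 30.5, 29.2 and 28.5 CPM in the scrambled libraries, 44.3, 45.2, 45.4 and 45.6 CPM with siRNA-1, and 48.5, 46.6, 47.6 and 47.8 CPM with siRNA-2. All siRNA libraries were above the scrambled ones. The log2 fold change was 0.64 ± 0.04 (SE) with siRNA-1 (adjusted p = 2.09e-12) and 0.71 ± 0.04 (SE) with siRNA-2 (adjusted p = 1.87e-13). This interval contains PELO, a ribosome rescue gene on the same strand, which held 87.9% as many reads and changed by 0.70 ± 0.04 (SE) and 0.79 ± 0.04 (SE). With the PELO reads subtracted, an alternative chosen after seeing the data, ITGA1 had 186, 226, 194 and 229 reads in the scrambled libraries, 233, 275, 194 and 230 reads with siRNA-1, and 222, 300, 254 and 260 reads with siRNA-2, groups that overlapped. The values were then 0.19 ± 0.10 (SE) (adjusted p = 0.123) and 0.22 ± 0.10 (SE) (adjusted p = 0.0634), so its call rests on reads inside PELO.

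ITGA11, the alpha chain of a fibroblast collagen receptor, was at 53.1 ± 1.61 CPM (SD, n = 4), 73.4 ± 1.16 CPM and 61.6 ± 5.75 CPM in the 3 groups. It was higher with siRNA-1 (log2 fold change 0.47 ± 0.05 (SE), adjusted p = 1.54e-08) and with siRNA-2 (0.21 ± 0.05 (SE), adjusted p = 6.64e-04). Its interval shares 19416 bases with FEM1B on the other strand, which held 83.4% as many reads and changed by 0.31 ± 0.04 (SE) and 0.16 ± 0.04 (SE), so the reads of these genes could not be separated.

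Among the laminin-binding alpha genes ITGA7 rose with both siRNAs, ITGA6 fell with siRNA-1, and ITGA3 rose with siRNA-2.

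ITGA3 (chr17:50055235-50092597, plus strand) was counted at 2093, 2184, 2136 and 2093 CPM in the scrambled libraries, 1882, 1935, 2097 and 2139.8 CPM with siRNA-1, and 2662, 2588, 2665 and 2612 CPM with siRNA-2. The siRNA-2 libraries were all above the scrambled ones, and the siRNA-1 libraries overlapped with them. It rose by 0.31 ± 0.04 (SE) with siRNA-2 (adjusted p = 3.01e-07), and with siRNA-1 the value was -0.08 ± 0.04 (SE) (adjusted p = 0.0991). ITGA3 was called lower with siRNA-1 under 7 of 20 alternative settings (log2 fold change -0.13 to -0.09), among them the DESeq2 test (adjusted p = 0.0405) and edgeR without scrambled replicate 1, siRNA-1 replicate 4 or siRNA-2 replicate 1 (adjusted p = 0.0128 to 0.0392), so its direction with siRNA-1 was opposite to that with siRNA-2 there. Several of these settings also moved all genes down with siRNA-1. The median shift in log2 fold change was -0.05 with all gene intervals kept, -0.04 with only protein-coding intervals and -0.03 without scrambled replicate 1. ITGA3 stood at -0.13, -0.12 and -0.12 there, and the part of the shift in its calls was not tested. The opposite-strand interval LOC284080 shares 1330 bases with ITGA3, held 14.7% as many reads and changed by -0.06 ± 0.07 (SE, not called) and 0.35 ± 0.07 (SE).

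ITGA6 (chr2:172427336-172506459, plus strand), the alpha chain that pairs with ITGB1 or ITGB4 and marks stem-like glioma cells, was at 233, 250.3, 243 and 260.4 CPM in the scrambled libraries, 136, 147, 149 and 151 CPM with siRNA-1, and 229, 226, 243 and 232 CPM with siRNA-2. The siRNA-1 libraries were all below the others, and the siRNA-2 libraries overlapped with the scrambled ones. It fell with siRNA-1 to 0.591 times the scrambled level (log2 fold change -0.76 ± 0.04 (SE), adjusted p = 5.38e-14), and the value with siRNA-2 was -0.08 ± 0.04 (SE) (adjusted p = 0.0792). Under 8 of 20 alternative settings it was called lower with siRNA-2 as well (-0.15 to -0.09), among them edgeR without scrambled replicate 1 (-0.14, adjusted p = 0.00568), siRNA-1 replicate 2 or siRNA-2 replicate 3. An opposite-strand interval, LOC101929947, covers 42230 bases of ITGA6, held 94.4% as many reads and gave -0.76 ± 0.04 (SE) and -0.10 ± 0.04 (SE). The intervals of ITGA6 and of its partner ITGB4 thus had log2 fold changes of opposite sign with siRNA-1. The reads of ITGB4 could not be separated from those of GALK1, so the contrast is one of intervals, not of these genes alone.

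ITGA7 (chr12:55683790-55716037, minus strand), the laminin receptor chain of skeletal muscle, was at 13.4, 10.4, 11.2 and 11.97 CPM in the scrambled libraries, 29.5, 25.5, 24.0 and 26.6 CPM with siRNA-1, and 23.4, 25.5, 24.5 and 25.8 CPM with siRNA-2. Each siRNA library was above each scrambled library. It rose 2.25-fold with siRNA-1 (log2 fold change 1.17 ± 0.07 (SE), adjusted p = 1.56e-12) and 2.12-fold with siRNA-2 (1.08 ± 0.07 (SE), adjusted p = 5.07e-12). METTL7B shares 822 bases with ITGA7 from the other strand and held 9.53% as many reads. BLOC1S1-RDH5 shares 4 bases, held 131% as many reads and fell (-0.31 ± 0.05 and -0.33 ± 0.05, SE). Of 6 muscle markers 2 passed the filter: DES rose (0.69 ± 0.10 and 0.89 ± 0.10, SE) and MYH3 fell (-0.77 ± 0.10 and -0.77 ± 0.10, SE). The summed level of the 6 was 16.8 to 21.1 CPM, 16.9 to 19.6 CPM and 18.8 to 21.7 CPM in the 3 groups, and MYOD1 had at most 1 read in a library.

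The alpha genes whose receptors bind the RGD tripeptide of fibronectin and vitronectin also split, with ITGAV and ITGA8 down and ITGA5 and ITGA2B up with both siRNAs.

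ITGAV (chr2:186590056-186680906, plus strand), the alpha chain shared by the vitronectin and TGF-beta-activating receptors, was at 114, 121, 121 and 133 CPM in the scrambled libraries, 101, 90.0, 78.5 and 89.2 CPM with siRNA-1, and 54.4, 63.6, 68.0 and 63.7 CPM with siRNA-2. The 3 groups did not overlap, and siRNA-2 was lowest. It fell to 0.734 times the scrambled level with siRNA-1 (log2 fold change -0.45 ± 0.08 (SE), adjusted p = 6.96e-04) and to 0.511 times with siRNA-2 (-0.97 ± 0.08 (SE), adjusted p = 9.46e-07). siRNA-2 was below siRNA-1 (log2 difference -0.52 ± 0.08 (SE), adjusted p = 5.28e-04), whereas ITGB8, its partner, was higher with siRNA-2 than with siRNA-1 by 0.30 ± 0.05 (SE) (adjusted p = 5.80e-05).

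ITGA8 (chr10:15513950-15720335, minus strand), the alpha chain of a receptor for nephronectin, was at 5.06, 5.38, 5.97 and 6.34 CPM in the scrambled libraries, 3.85, 3.47, 3.61 and 3.63 CPM with siRNA-1, and 4.52, 3.63, 4.26 and 4.00 CPM with siRNA-2. All siRNA libraries were below the scrambled ones. It fell with both siRNAs, with log2 fold changes of -0.64 ± 0.10 (SE) (adjusted p = 7.75e-06) and -0.47 ± 0.10 (SE) (adjusted p = 2.62e-04).

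ITGA5 was at 646 ± 15.1 CPM (SD, n = 4), 789 ± 37.0 CPM and 863 ± 25.4 CPM in the scrambled, siRNA-1 and siRNA-2 groups. It rose by 0.29 ± 0.04 (SE) with siRNA-1 (adjusted p = 4.49e-07) and 0.42 ± 0.04 (SE) with siRNA-2 (adjusted p = 7.12e-10), while ITGB1, its beta chain, fell with both. The opposite-strand interval LOC102724050 spans all of ITGA5, held 105% as many reads and changed by 0.26 ± 0.04 (SE) and 0.40 ± 0.04 (SE); whether reads were counted by strand was not given in the sources used here.

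ITGA2B (chr17:44372066-44389649, minus strand), the alpha chain of the platelet fibrinogen receptor, was rare, with 16, 7, 6 and 14 reads in the scrambled libraries, 29, 28, 33 and 31 reads with siRNA-1, and 55, 59, 61 and 25 reads with siRNA-2. The siRNA libraries were all above the scrambled ones in CPM. It rose by 1.52 ± 0.34 (SE) with siRNA-1 (adjusted p = 5.67e-04) and 2.13 ± 0.33 (SE) with siRNA-2 (adjusted p = 4.84e-06), from a mean of 0.232 ± 0.113 CPM (SD, n = 4). Of the 10 endothelial and platelet markers, 5 were tested and 0 called with either siRNA by edgeR, where 63% and 65.6% of protein-coding genes were called. The platelet markers PPBP and PF4 had 0 reads in all libraries, and GP9 had at most 1. The summed level of the 10 markers was 30.8 to 35.2 CPM, 32.9 to 37.9 CPM and 27.4 to 33.1 CPM in the 3 groups.

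ITGA4 (chr2:181456556-181538940, plus strand), the alpha chain of a receptor for VCAM1 and fibronectin, was at 53.6, 61.3, 62.3 and 59.3 CPM in the scrambled libraries, 52.0, 47.1, 42.2 and 48.5 CPM with siRNA-1, and 32.1, 38.3, 40.1 and 40.0 CPM with siRNA-2. The siRNA-1 libraries were below the scrambled ones and above the siRNA-2 libraries. It fell with both siRNAs, with log2 fold changes of -0.32 ± 0.07 (SE) (adjusted p = 0.00206) and -0.65 ± 0.07 (SE) (adjusted p = 2.08e-06). CERKL, on the other strand, shares 2269 bases with ITGA4, held 17.9% as many reads and fell as well (-0.39 ± 0.10 and -0.76 ± 0.10, SE). ITGA9, its closest relative, was at 1.32 ± 0.346 CPM (SD, n = 4) with the scrambled siRNA and was called with neither siRNA (0.03 ± 0.20 (SE) and 0.08 ± 0.19 (SE)); its interval shares 78075 bases with ITGA9-AS1, which held 141% as many reads.

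Of the leukocyte alpha genes, ITGAE was the 1 called from the deposited counts, and the values of 3 others rest on shared reads. ITGAE, the alpha chain of intraepithelial lymphocytes, was at 51.0 ± 0.912 CPM (SD, n = 4), 36.4 ± 2.09 CPM and 38.2 ± 0.983 CPM. It fell with both siRNAs, with log2 fold changes of -0.49 ± 0.04 (SE) (adjusted p = 1.03e-09) and -0.42 ± 0.04 (SE) (adjusted p = 1.27e-08). Its interval contains HASPIN, a mitotic kinase gene on the other strand, with 45.6% as many reads. With those subtracted, an alternative chosen after seeing the data, ITGAE fell by 0.81 ± 0.06 (SE) (adjusted p = 3.69e-11) and 0.88 ± 0.06 (SE) (adjusted p = 6.55e-12). This subtraction holds only if reads were counted without regard to strand, which was not given in the sources used here. NCBP3 shares a further 1609 bases with it and held 140% as many reads.

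ITGAM (chr16:31257927-31332894, plus strand) and ITGAX (chr16:31354627-31383001, plus strand) encode alpha chains of the complement receptors of myeloid cells, and ITGAD (chr16:31393223-31426513, plus strand) encodes their close relative. The genes lie side by side on chromosome 16, between PYDC1 and COX6A2. The intervals of PYDC1 and COX6A2, 211 kb apart, held equal counts in 9 of 12 libraries and differed by at most 1 read in the rest, from 0 to 223 reads, so these reads appear to be counted in all intervals between. As deposited, ITGAM had 166, 211, 204 and 380 reads in the scrambled libraries, 100, 196, 164 and 63 reads with siRNA-1, and 46, 338, 73 and 243 reads with siRNA-2. ITGAX had 101, 78, 91 and 292 reads in the scrambled libraries, 212, 294, 256 and 138 reads with siRNA-1, and 168, 456, 218 and 422 reads with siRNA-2. ITGAD had 53, 40, 46 and 234 reads in the scrambled libraries, 47, 147, 129 and 13 reads with siRNA-1, and 25, 239, 19 and 201 reads with siRNA-2. The libraries with many COX6A2 reads, such as scrambled replicate 4 and siRNA-2 replicates 2 and 4, were high for all 3 genes, the groups overlapped, and none of the 3 was called with either siRNA.

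With the COX6A2 count subtracted from each library, an alternative chosen after seeing the data, ITGAM had 128, 181, 170 and 157 reads in the scrambled libraries, 60, 59, 45 and 63 reads with siRNA-1, and 46, 116, 73 and 74 reads with siRNA-2. All siRNA libraries were then below all scrambled ones, and ITGAM fell by 1.45 ± 0.17 (SE) on the log2 scale with siRNA-1 (adjusted p = 1.00e-07) and by 1.14 ± 0.17 (SE) with siRNA-2 (adjusted p = 2.35e-06). ITGAX then had 48 to 69 reads in the scrambled libraries and at least 137 in every siRNA library, with means of 1.27 ± 0.20 CPM (SD, n = 4), 3.31 ± 0.38 CPM and 4.38 ± 0.42 CPM in the 3 groups. ITGAX rose by 1.38 ± 0.14 (SE) (adjusted p = 4.56e-09) and 1.79 ± 0.14 (SE) (adjusted p = 2.60e-11). ITGAD then had 15, 10, 12 and 11 reads in the scrambled libraries, 7, 10, 10 and 13 reads with siRNA-1, and 25, 17, 19 and 32 reads with siRNA-2, with log2 fold changes of -0.23 ± 0.37 (SE) (adjusted p = 0.63) and 0.87 ± 0.33 (SE) (adjusted p = 0.0291). Of 10 leukocyte markers 8 had an interval and 6 were tested. With siRNA-1, 1 rose and 2 fell (50% called), and with siRNA-2, 1 rose and 1 fell (33.3% called), where 63% and 65.6% of protein-coding genes were called. The summed level of these markers was 274 to 299.8 CPM, 250.1 to 260.4 CPM and 307 to 339 CPM in the 3 groups, most of it from CSF1R and CD68. MS4A1, a B cell marker, had 0 reads, and CD3E, a T cell marker, had at most 4.

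**Figure D4:**
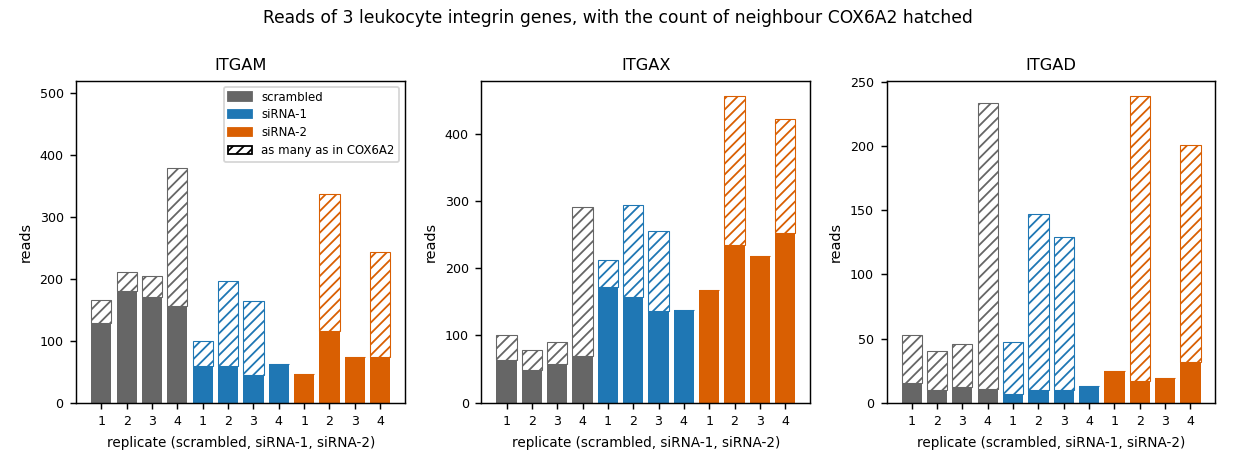
Reads of ITGAM, ITGAX and ITGAD in each of the 12 libraries (bars in the order scrambled, siRNA-1, siRNA-2, by replicate), with the part that equals the COX6A2 count hatched and the remainder filled. The filled part is lower in all siRNA libraries for ITGAM and higher for ITGAX, and for ITGAD most of each tall bar is hatched.

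Among the laminin gamma genes LAMC1 fell and LAMC3 rose with both siRNAs.

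LAMC1 (chr1:183022586-183146138, plus strand), the gamma chain of most laminins, was at 590.0, 639, 615 and 638 CPM in the scrambled libraries, 439, 430.3, 453 and 477 CPM with siRNA-1, and 450.0, 463, 519 and 500.1 CPM with siRNA-2. All siRNA libraries were below the scrambled ones, and the siRNA groups overlapped. It fell with both siRNAs, with log2 fold changes of -0.46 ± 0.04 (SE) (adjusted p = 2.15e-09) and -0.36 ± 0.04 (SE) (adjusted p = 1.29e-07).

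LAMB3 (chr1:209614870-209653077, minus strand), a beta chain of the laminin that anchors epithelial cells, was at 40.8, 37.8, 35.3 and 40.2 CPM in the scrambled libraries, 17.3, 15.8, 18.0 and 19.8 CPM with siRNA-1, and 33.3, 28.4, 26.7 and 27.9 CPM with siRNA-2. The 3 groups did not overlap, with siRNA-1 lowest and the scrambled libraries highest. It fell to 0.460 times the scrambled level with siRNA-1 (log2 fold change -1.12 ± 0.07 (SE), adjusted p = 9.61e-11) and to 0.754 times with siRNA-2 (-0.41 ± 0.07 (SE), adjusted p = 5.05e-05). LAMA3, the alpha chain of that laminin, was far lower per length and was called with neither siRNA (-0.16 ± 0.11 (SE), adjusted p = 0.226, and 0.22 ± 0.11 (SE), adjusted p = 0.0750). Of 8 epithelial markers, 7 were tested. With siRNA-1, 2 rose and 1 fell (42.9% called), and with siRNA-2, 3 rose and 2 fell (71.4% called), where 63% and 65.6% of protein-coding genes were called. The summed level of these markers was 45.1 to 52.2 CPM, 55.9 to 69.5 CPM and 49.4 to 59.8 CPM. Among them KRT5, a basal keratin, rose (1.29 ± 0.24 and 0.99 ± 0.24, SE) and CLDN4, a tight junction gene, fell (-0.24 ± 0.06 and -0.38 ± 0.06, SE). Their part in the LAMB3 values was not tested.

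LAMC3 (chr9:131009118-131094473, plus strand), a gamma chain found at low levels in brain and vessels, had 37, 39, 28 and 51 reads in the scrambled libraries, 36, 82, 74 and 85 reads with siRNA-1, and 52, 77, 73 and 87 reads with siRNA-2. With siRNA-2 all libraries were above the scrambled ones in CPM, and with siRNA-1 replicate 1 overlapped with them. It rose by 0.87 ± 0.23 (SE) (adjusted p = 0.00271) and 0.80 ± 0.23 (SE) (adjusted p = 0.00452).

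The common laminin beta genes rose. LAMB2 (chr3:49121114-49133166, minus strand), the beta chain of synaptic and vascular laminins, was at 155, 152, 141 and 149.9 CPM in the scrambled libraries, 178, 176, 162 and 183 CPM with siRNA-1, and 209, 212, 217 and 210.4 CPM with siRNA-2. The 3 groups did not overlap, with siRNA-2 highest. It rose by 0.23 ± 0.04 (SE) (adjusted p = 2.46e-05) and 0.50 ± 0.04 (SE) (adjusted p = 3.58e-11). LAMB1 rose from 431 ± 8.25 CPM (SD, n = 4) to 547 ± 15.6 CPM with siRNA-1 (0.34 ± 0.04 (SE), adjusted p = 1.43e-08) and 508 ± 20.9 CPM with siRNA-2 (0.24 ± 0.04 (SE), adjusted p = 4.22e-06). DLD, on the other strand, shares 328 bases with LAMB1, held 22.1% as many reads and fell (-0.09 ± 0.04 and -0.33 ± 0.04, SE). LAMB1 and LAMB2 went up while LAMC1, their gamma partner, went down. LAMB4, which was near 1 CPM, was called higher with siRNA-1 (0.46 ± 0.17 (SE), adjusted p = 0.0293). That call was lost without scrambled replicate 1 (0.33, adjusted p = 0.131) or siRNA-1 replicate 2 (0.37, adjusted p = 0.112), and 3 intervals inside it held 70.4% to 80.9% as many reads.

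Among the laminin alpha genes LAMA4 rose with both, by 0.34 ± 0.04 (SE) (adjusted p = 9.73e-08) and 0.28 ± 0.04 (SE) (adjusted p = 1.67e-06), from 70.4 ± 0.741 CPM (SD, n = 4). An interval inside LAMA4 on the other strand, LOC107986633, held 48.2% as many reads and changed by 0.28 ± 0.05 (SE) and 0.27 ± 0.05 (SE). LAMA5 was at 369.7 ± 31.4 CPM, 325 ± 33.1 CPM and 444 ± 21.03 CPM in the 3 groups. It rose with siRNA-2 (0.26 ± 0.07 (SE), adjusted p = 0.00859), and the value with siRNA-1 was -0.18 ± 0.07 (SE) (adjusted p = 0.0526, or -0.26 with adjusted p = 0.00424 without siRNA-1 replicate 4). LAMA5 was called lower with siRNA-1 under 9 of 20 alternative settings (-0.26 to -0.20), among them the DESeq2 test (adjusted p = 0.00712) and edgeR also without scrambled replicate 1, scrambled replicate 4 or siRNA-2 replicate 1. LAMA1, the alpha chain of embryonic basement membranes, rose with siRNA-1 (0.46 ± 0.12 (SE), adjusted p = 0.00257) and not measurably with siRNA-2 (0.05 ± 0.12 (SE), adjusted p = 0.769). LAMA2 was called with neither (-0.10 ± 0.05 (SE), adjusted p = 0.0815, and -0.05 ± 0.05 (SE), adjusted p = 0.410). It was called lower with siRNA-1 under 8 of 20 alternative settings (-0.15 to -0.12), among them edgeR without scrambled replicate 1, siRNA-1 replicate 1 or siRNA-2 replicate 1. LOC102723409, on the other strand, shares 23438 bases with LAMA2 and held 14.9% as many reads.

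Summed by side, the 26 receptor genes held 4917 ± 105 CPM (SD, n = 4) with the scrambled siRNA, 4496 ± 134 CPM with siRNA-1 and 5204 ± 75.6 CPM with siRNA-2. This sum rests largely on a few genes. ITGA3 alone held 2127 ± 43.3 CPM, 2014 ± 124 CPM and 2632 ± 37.8 CPM in the 3 groups. ITGB1 held 1107 ± 56.2 CPM, 774 ± 42.3 CPM and 718 ± 47.1 CPM. The 11 ligand genes held 1735 ± 52.0 CPM, 1659 ± 60.1 CPM and 1817 ± 57.7 CPM. The ratio of ligand to receptor reads was 0.353 ± 0.00918, 0.369 ± 0.00760 and 0.349 ± 0.00632 in the 3 groups, a description without a test. Of the 25 receptor genes tested, 6 were higher (24%) and 11 lower (44%) with siRNA-1, and 8 higher and 8 lower (32% each) with siRNA-2. Of the 11 ligand genes, 6 were higher (54.5%) and 2 lower (18.2%) with siRNA-1, and 5 higher (45.5%) and 2 lower (18.2%) with siRNA-2. The shares of protein-coding genes were 35% higher and 28% lower for siRNA-1 and 35.1% higher and 30.5% lower for siRNA-2, and no difference between receptor and ligand genes was tested. These shares depend on the fit. With only protein-coding intervals fitted, 4701 genes were called higher and 4887 lower with siRNA-1, against 5244 and 4203 in the main fit. With siRNA-2 the counts were 4957 and 5059, against 5262 and 4575.

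The siRNAs differed from each other for 18 of 36 members (50%), 10 higher and 8 lower with siRNA-2, where 41.1% of protein-coding genes were called (18.5% higher and 22.6% lower). The groups were apart for 15 members, where 39.7% of protein-coding genes were, and 0 of the 18 reached 2-fold, where 1.64% of protein-coding genes did. Of the members with the larger differences, ITGA2, ITGB2 (0.86 ± 0.24 (SE), adjusted p = 0.00827), LAMB3 (0.71 ± 0.07 (SE), adjusted p = 3.20e-07) and ITGA6 (0.67 ± 0.04 (SE), adjusted p = 3.38e-12) were higher with siRNA-2. ITGB6 (-0.73 ± 0.21 (SE), adjusted p = 0.00764), LAMB4 (-0.61 ± 0.17 (SE), adjusted p = 0.00804) and ITGAV were lower with siRNA-2. For ITGB1 the difference was -0.11 ± 0.05 (SE) (95% interval -0.22 to 0.00, adjusted p = 0.0971, or -0.14 with adjusted p = 0.0303 without siRNA-1 replicate 3 and -0.14 with adjusted p = 0.0476 without siRNA-2 replicate 3), for ITGB4 0.13 ± 0.10 (SE) (95% interval -0.10 to 0.35, adjusted p = 0.393) and for ITGA7 -0.09 ± 0.07 (SE) (95% interval -0.24 to 0.06, adjusted p = 0.338), so for ITGB4 and ITGA7 differences within those intervals were not detectable.

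The genes that act with these receptors and ligands were followed in lists, whose counts are to be read against the 63% and 65.6% of protein-coding genes called with siRNA-1 and siRNA-2. Reads shared with overlapping intervals were not examined for the genes of these lists. Of 32 focal adhesion adaptor and kinase genes tested, 13 rose and 8 fell with siRNA-1 and 15 rose and 9 fell with siRNA-2 (65.6% and 75% called), with a median log2 fold change of 0.03 and 0.18. TLN1, the talin that binds integrin beta tails and activates them, rose from 151 ± 5.63 CPM (SD, n = 4) to 421 ± 25.5 CPM and 416 ± 23.6 CPM (1.48 ± 0.05, adjusted p = 4.40e-18, and 1.47 ± 0.05, adjusted p = 3.94e-18, ± SE). TNS1, a tensin of fibrillar adhesions, rose by 1.73 ± 0.06 and 1.26 ± 0.06 (SE), and NEDD9, a docking protein for focal adhesion kinase, by 0.96 ± 0.04 and 0.57 ± 0.05 (SE). LIMS1, a binding partner of integrin-linked kinase, changed by -0.48 ± 0.05 and -0.88 ± 0.05 (SE), a fall.

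Of 14 membrane partners of integrins, 8 rose and 4 fell with siRNA-1, and 10 rose and 2 fell with siRNA-2 (85.7% called with each, median 0.15 and 0.23). PLAUR, the urokinase receptor, rose (0.66 ± 0.04 and 0.55 ± 0.04, SE), as did the tetraspanin CD9 (0.36 ± 0.04 and 0.56 ± 0.04, SE). SDC4, a syndecan that binds fibronectin together with integrins, fell (-0.70 ± 0.04 and -0.59 ± 0.04, SE), and the caveolin CAV1 fell (-0.65 ± 0.04 and -0.09 ± 0.04, SE). Of 12 integrin trafficking genes, 2 rose and 6 fell with siRNA-1 and 3 rose and 6 fell with siRNA-2 (66.7% and 75% called, median -0.12 and -0.10). RAB4A, a GTPase of fast recycling, fell (-0.56 ± 0.06 and -0.75 ± 0.06, SE), and ARF6, a GTPase of integrin recycling, rose (0.26 ± 0.04 and 0.43 ± 0.04, SE). The endocytic adaptor DAB2 fell with siRNA-1 (-0.48 ± 0.04, SE, adjusted p = 3.20e-11) and rose with siRNA-2 (0.11 ± 0.04, SE, adjusted p = 0.0108), and RAB11FIP1 rose with siRNA-1 (0.62 ± 0.05, SE) and was not called with siRNA-2 (-0.03 ± 0.05, SE, adjusted p = 0.572).

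Of 16 partners of laminin in the basement membrane, 7 rose and 3 fell with siRNA-1, and 4 rose and 5 fell with siRNA-2 (62.5% and 56.3% called, median 0.12 and 0.03). NID1, the nidogen that links the laminin gamma chain to collagen IV, rose from 132 ± 6.00 CPM (SD, n = 4) to 299.7 ± 10.4 CPM and 328 ± 16.1 CPM (1.18 ± 0.04, adjusted p = 1.93e-17, and 1.31 ± 0.04, adjusted p = 3.16e-18, ± SE). AGRN, a heparan sulfate proteoglycan that binds laminin, rose (0.54 ± 0.05 and 0.68 ± 0.05, SE), as did BCAM, a receptor for LAMA5 (0.82 ± 0.05 and 0.71 ± 0.05, SE). NTN4, a netrin that loosens laminin networks, rose with siRNA-1 (0.57 ± 0.05, SE) and was not called with siRNA-2 (0.07 ± 0.05, SE, adjusted p = 0.269). The collagen IV genes COL4A1 (0.19 ± 0.04 and -0.48 ± 0.04, SE) and COL4A2 (0.12 ± 0.04 and -0.20 ± 0.04, SE) rose with siRNA-1 and fell with siRNA-2. NID2, at 1.28 ± 0.214 CPM (SD, n = 4) with the scrambled siRNA, fell with both (-0.68 ± 0.20 and -0.78 ± 0.20, SE).

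Of 25 other integrin ligands tested, 18 rose and 3 fell with siRNA-1, and 15 rose and 3 fell with siRNA-2 (84% and 72% called, median 0.49 and 0.21, against 0.01 and 0.01 over all genes). COL1A1, a chain of collagen I, rose from 55.4 ± 1.41 CPM (SD, n = 4) to 193 ± 19.1 CPM and 114 ± 3.28 CPM (1.80 ± 0.05 and 1.04 ± 0.05, SE). THBS2, a thrombospondin, rose from 358 ± 17.5 CPM to 625 ± 44.7 CPM and 1187 ± 29.5 CPM (0.80 ± 0.05 and 1.73 ± 0.05, SE). FN1, fibronectin and the ligand of the ITGA5 receptor, rose by 0.20 ± 0.04 and 1.02 ± 0.04 (SE), and VTN, vitronectin and a ligand of ITGAV receptors, by 2.77 ± 0.13 and 1.09 ± 0.14 (SE), from 1.18 ± 0.206 CPM. Of 10 genes that build the laminin-binding sugar of dystroglycan, 4 rose and 2 fell with each siRNA (60% called, median 0.05 and 0.06). B4GAT1 rose (0.83 ± 0.04 and 0.62 ± 0.04, SE) and POMGNT2 rose (0.44 ± 0.05 and 0.38 ± 0.05, SE), whereas POMK fell (-0.45 ± 0.14 and -0.89 ± 0.14, SE). Of the interferon response genes, XAF1 changed by 3.82 ± 0.27 and 4.82 ± 0.27 (SE) on the log2 scale, which was larger than the value of any of the integrin or laminin genes tested here with the same siRNA, and IFIT2, MX1 and IFIH1 changed by 1.46 ± 0.07, 0.87 ± 0.07 and 1.68 ± 0.11 with siRNA-1 and by 2.52 ± 0.07, 1.15 ± 0.07 and 2.06 ± 0.11 with siRNA-2 (SE).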

How the data were processed

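RNA from 12 libraries of A172 cells was sequenced, 4 in each of 3 groups assigned from the sample titles. The authors deposited raw counts, whole numbers of reads in each of 49731 intervals. Per the submitters' processing notes Salmon and the hg38 build were used. The counting tool and strand setting for the intervals were not given in the sources used here. Intervals span whole genes, introns included, and reads in overlapping intervals can be shared, so the main overlaps are given beside the integrin and laminin genes they touch. Overlaps of the genes in the other lists were not examined. Left out were 962 region intervals and 4434 gene intervals that reach over 100000 bases beyond the gene of that name, repeat the counts of an overlapping interval, carry an older or numeric name, or lie in ribosomal RNA or elsewhere than the gene, which left 44335. Some genes of the families and lists are not reported here and enter no count over them.

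Counts were tested with edgeR 4.0.16 in R 4.3.3 (TMM, filterByExpr with a minimum count of 10 and a minimum total of 15, a robust quasi-likelihood fit to the 12 libraries together, no covariate beside group, two-sided, Benjamini-Hochberg, threshold 0.05). The SE was obtained by dividing the size of the log2 change by the root of F, and 95% intervals use 9 residual degrees of freedom. The fit was tested on simulated data. Exon lengths come from GENCODE v29 and promoters from RefSeq. Values in every library are given for members called with an absolute log2 fold change of at least 0.5 with either siRNA, members called in opposite directions, and the highest per length of the alpha, beta and laminin genes, and up to 4 genes by p in each other list. Further lists used as checks were neuron and oligodendrocyte markers, of which 4 of 9 were tested and 1 rose with each siRNA (25% called, against 63% and 65.6% of protein-coding genes). Of the basement membrane list, COL4A1, COL4A2 and NID2 are named beside the 4 genes chosen by p, which all rose with siRNA-1. The members and lists were chosen with earlier results of these data known. Alternatives were DESeq2 1.42.0 and its size factors, other filters and gene sets, a replicate block and leaving out each library. Figures used matplotlib 3.10.9 under Python 3.11.15.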

Additional observations from a re-analysis of the deposited data

Results flagged for a closer look

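In 111 groups of 4 libraries (37 genes in 3 groups), 1 library stood apart from the other 3 in 8 groups of 7 genes; chance alone gives this in about 1 in 20 groups. In scrambled replicate 4, ITGAD was at 4.98 CPM against 0.861 to 1.18 CPM in the other scrambled libraries, and ITGAX was at 6.21 CPM against 1.68 to 2.25 CPM. The COX6A2 interval beside them had 223 reads in that library and 30 to 38 in the other scrambled libraries. ITGB2 was at 1.05 CPM in scrambled replicate 1, against 0.82 to 0.83 CPM. LAMA2 was at 41.3 CPM in scrambled replicate 4, against 39.4 to 39.7 CPM, and LAMA5 at 417 CPM in scrambled replicate 2, against 353.5 to 354 CPM. With siRNA-1, replicate 1 stood apart for ITGB6 (0.867 CPM against 1.31 to 1.37 CPM), LAMA2 (40.2 CPM against 36.0 to 36.6 CPM) and LAMC3 (0.801 CPM against 1.72 to 1.79 CPM).

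ITGA2 differed between the siRNAs in direction: it fell with siRNA-1 and rose with siRNA-2, and the direct test between them gave a log2 difference of 0.80 ± 0.05 (SE) by edgeR's quasi-likelihood test (adjusted p = 1.81e-10), with all 4 siRNA-2 libraries above all 4 siRNA-1 libraries.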

How the results depend on the processing

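Under 20 alternative settings no count of members called higher or lower moved by over 1.5 times and no log2 fold change of a called member changed sign; of 66 calls of single members over the 3 comparisons, 63 kept their side of the threshold in all of them. The exceptions were LAMB1 between the siRNAs (lost in 7), LAMB4 with siRNA-1 (lost in 5) and ITGA5 between the siRNAs (lost in 1). Leaving out 1 library gave 11 to 13 members higher and 13 to 16 lower with siRNA-1, 13 to 14 and 10 to 12 with siRNA-2, and 9 to 12 and 7 to 9 between the siRNAs. Of 42 member results not called over the 3 comparisons, 15 were called in at least 1 of these settings, in the direction of the value given. They were ITGA3 (7 settings), LAMA2 (8) and LAMA5 (9), lower with siRNA-1; ITGA6 (8), ITGB6 (8), ITGB3 (1) and LAMA2 (1), lower with siRNA-2; LAMA3 (2), higher with siRNA-2; and ITGB1 (2), ITGB3 (2), ITGA10 (1), ITGA2B (1) and LAMC1 (4) between the siRNAs. ITGAX was called higher with both without scrambled replicate 4 (1.34, adjusted p = 0.0229, with siRNA-1 and 1.69, adjusted p = 0.00663, with siRNA-2). With a replicate block the counts were 12 and 13, 13 and 10, and 10 and 8, as without it; same-numbered libraries did not deviate together (12 pairs, correlation -0.05 to 0.04; 0 of 12 libraries correlated best with their own number), so the numbers were not treated as pairs. Some settings moved all genes together. With all gene intervals kept, only protein-coding intervals or no scrambled replicate 1, the median shift was -0.05, -0.04 and -0.03 with siRNA-1. With siRNA-2 it was -0.07, -0.03 and -0.03. ITGA3, LAMA2 and LAMA5 with siRNA-1 and ITGA6 with siRNA-2 were called lower in each of these settings. The part of the shift in those calls was not tested. Of 1716 counts over the other lists and settings, 79 moved by over 1.5 times. Without both libraries high in 45S RNA, an alternative chosen after seeing the data, the calls of LAMA1 (-0.28, adjusted p = 0.0777) and LAMA3 (0.28, adjusted p = 0.0906) between the siRNAs were lost, as were those of LAMB1 between the siRNAs (-0.12, adjusted p = 0.0590) and LAMB4 with siRNA-1 (0.44, adjusted p = 0.0625). At under about 1 CPM, as for ITGA2B, ITGB2, ITGB3 and LAMC3, depth limits the precision, and reads shared between overlapping intervals limit what a single gene's value means.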
